A study of Homo sapiens with 9 samples.

Results

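The RASSF tumor suppressor family was described across 9 RNA-seq libraries of A549 cells, a human lung adenocarcinoma line. Its 10 genes, RASSF1 to RASSF10, were taken by symbol from the 18143 genes in the deposited files, and all 10 are listed in every library. The family was chosen by the level of RASSF3, which is low after the siRNA SiREV1#1 and not after SiREV1#2. For this reason RASSF3 is given below as a description with no test, and only the other 9 genes were tested. The cells had been transfected for 48 h with scrambled siRNA (Scramble) or with SiREV1#1 or SiREV1#2, which target REV1, a polymerase of translesion DNA synthesis, with 3 libraries per group. No other agent was applied, so Scramble shares with both other groups the transfection itself. The labels do not say whether the replicates came from separate cultures, so the p-values measure the spread between these libraries, which may be technical.

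RASSF proteins carry a RAS association domain, which in several members binds RAS-like GTPases. The C-terminal members, RASSF1 to RASSF6, also end in a SARAH domain. Through this domain they pair with the Hippo kinases STK3 and STK4 (also called MST2 and MST1), and the scaffold SAV1 carries a SARAH domain too. The N-terminal members, RASSF7 to RASSF10, have the RAS association domain near their start and no typical SARAH domain. Many RASSF genes are known as tumor suppressors that are silenced in cancers, RASSF1 in lung cancer among them.

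Levels are given as FPKM (fragments per kilobase of transcript, scaled to the fragments of the library), which can be compared between genes. The highest mean levels in Scramble were those of RASSF1 with 24.0 ± 17.0 FPKM, RASSF9 with 22.8 ± 13.7, RASSF7 with 18.0 ± 4.89 and RASSF3 with 15.4 ± 0.722 (SD, n = 3). RASSF6 with 7.05 ± 2.82, RASSF2 with 5.79 ± 2.87 and RASSF8 with 3.10 ± 0.362 came next (SD, n = 3). RASSF4 with 1.07 ± 0.389, RASSF5 with 0.950 ± 0.0917 and RASSF10 with 0.497 ± 0.497 were near the low end of what these libraries show (SD, n = 3). In this order RASSF3 and RASSF6, RASSF2 and RASSF8, and RASSF8 and RASSF4 did not overlap as neighbours, and all other neighbours overlapped. The FPKM of the 10 genes summed to 70.0 to 113 in Scramble, to 43.5 to 101 in the SiREV1#1 group, and to 67.2 to 119 in the SiREV1#2 group. RASSF3 made up 12.9% to 22.6% of that sum in Scramble, 2.84% to 5.79% after SiREV1#1 and 10.4% to 24.5% after SiREV1#2.

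**Figure D1:**
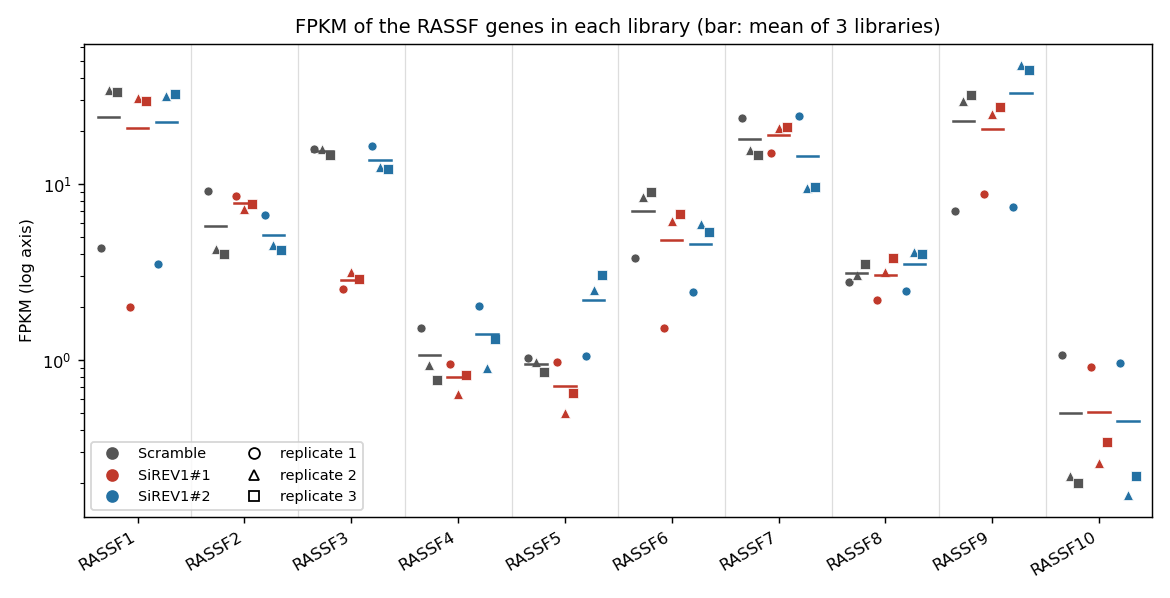
FPKM (log axis) of the 10 RASSF genes in each of the 9 libraries; colour marks the group, the symbol marks the replicate number and the bar is the mean of 3 libraries. RASSF3 lies between 2.52 and 3.17 in the 3 SiREV1#1 libraries and between 12.12 and 16.44 in the other 6, and replicate 1 (circles) of RASSF1, RASSF6 and RASSF9 lies far below replicates 2 and 3 in every group.

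Replicate 1 stood apart in all 3 groups, and the RASSF genes show it. RASSF1 in replicate 1 was 7.67-fold lower than the mean of replicates 2 and 3 in Scramble, 14.4-fold lower after SiREV1#1 and 8.97-fold lower after SiREV1#2. RASSF9 was 4.34-fold, 2.95-fold and 6.13-fold lower in the same order, and RASSF6 was 2.24-fold, 4.05-fold and 2.26-fold lower. RASSF10 was higher in replicate 1, by 3.77-fold, 2.52-fold and 3.59-fold. Thus 3 of the 9 members with a mean FPKM of at least 1, and 4 of 10 with RASSF10 included, were more than 2-fold off in the same direction in all groups, where 14.1% of the 11432 genes with a mean FPKM of at least 1 were. RASSF3 did not share this: its replicate 1 was 1.04-fold of the other replicates in Scramble, 0.840-fold after SiREV1#1 and 1.33-fold after SiREV1#2. The labels do not tell what set replicate 1 apart. The 10 most abundant genes took 9.63% to 14.52% of the counts in replicate 1 and 5.82% to 7.16% in the others, and the part of this in the RASSF values was not tested. Values are therefore given below within same-numbered libraries, and tests are given without and with the replicate number as a block.

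REV1 itself was 7.23, 7.90 and 8.44 FPKM in Scramble replicates 1 to 3, 2.60, 2.92 and 3.36 after SiREV1#1 and 3.62, 3.36 and 3.18 after SiREV1#2. Both siRNA groups lay below Scramble without overlap, which matches the labels. The log2 fold changes of REV1 were -1.26 (edgeR adjusted p = 0.042) and -1.33 (edgeR adjusted p = 0.15), and with the replicate block -1.26 (edgeR adjusted p = 0.0016) and -1.27 (edgeR adjusted p = 0.0099). The keratins KRT8, KRT18 and KRT7 and all 6 genes known to be high in A549 were above 1 FPKM in every library, while the leukocyte gene PTPRC, both endothelial genes and CDKN2A, which is deleted in A549, were below 1 in every library. Of the alveolar genes SFTPC, NAPSA and NKX2-1 were below 1 in every library and SFTPB was at 0.30 to 2.84 FPKM, and of the fibroblast genes COL3A1 and DCN were below 1 and COL1A1 was at 0.20 to 1.57. Summed over each list, the alveolar genes reached 1.76 FPKM in Scramble, 3.44 after SiREV1#1 and 1.78 after SiREV1#2, and the fibroblast genes 0.49, 1.62 and 0.55, and their part in the results was not tested. KRT19 and EPCAM, also epithelial, were at 0.10 to 1.34 and 0.73 to 2.38 FPKM. Total counts were between 13059082 and 20166451 per library. The lowest total was that of SiREV1#1 replicate 1, and all other libraries had at least 18121913. The count column deposited for SiREV1#2 replicate 3 repeats that of replicate 2, so tests on counts use 8 libraries, with 2 for SiREV1#2, while FPKM values cover all 9.

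RASSF3 is a C-terminal member that has been described to bind MDM2, a ubiquitin ligase. It lies on the plus strand of chromosome 12 (chr12:64507001-64697567, GRCh38). Its level was 15.79, 15.77 and 14.53 FPKM in Scramble replicates 1 to 3. After SiREV1#1 it was 2.52, 3.17 and 2.87 FPKM, and after SiREV1#2 16.44, 12.53 and 12.12 FPKM. All 3 SiREV1#1 libraries lay below all 6 others, while the SiREV1#2 libraries overlapped with Scramble. Within same-numbered libraries RASSF3 after SiREV1#1 was at 16.0%, 20.1% and 19.8% of Scramble, a mean log2 ratio of -2.39 ± 0.18 (SD, n = 3 pairs). After SiREV1#2 it was at 104%, 79.5% and 83.4% of Scramble, a mean log2 ratio of -0.18 ± 0.21 (SD, n = 3 pairs). On counts the log2 fold change after SiREV1#1 was -2.37 (standard error 0.19) without a block and -2.36 (standard error 0.16) with it. For SiREV1#2 these values were -0.04 (standard error 0.20) and -0.08 (standard error 0.17), from 2 libraries with counts of their own. Between 112 and 1088 counts stood behind each of these values. Of the exonic bases of RASSF3, 12.5% lie opposite exons of genes on the other strand, and whether the libraries kept the strand is not given in the sources used here. A lower value in bulk RNA cannot tell fewer expressing cells from less RNA per cell.

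After SiREV1#1, RASSF3 stood lower in the order of the family. In Scramble and after SiREV1#2 it held place 4 of 10 by mean FPKM, with RASSF1, RASSF7 and RASSF9 above it. After SiREV1#1 it held place 7, with a range that overlapped that of RASSF8 (2.20 to 3.78 FPKM) above it and lay clear of that of RASSF4 (0.64 to 0.95 FPKM) below it. The places differ by library. In replicates 1 to 3 RASSF3 held places 2, 3 and 4 in Scramble, 4, 6 and 7 after SiREV1#1 and 2, 3 and 3 after SiREV1#2. After SiREV1#2 RASSF7 lay below it in replicates 2 and 3, at 9.49 and 9.57 FPKM. Among the C-terminal members alone, RASSF3 made up 23.3% to 44.4% of the summed FPKM in Scramble, 5.94% to 15.3% after SiREV1#1 and 20.7% to 51.3% after SiREV1#2.

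The 3′ UTR of an mRNA can be matched by bases 2 to 8 of an siRNA guide strand, its seed, as in microRNAs. The 7-base words that pair with the guide seeds are CAGGAAT for SiREV1#1, GGACGAC for SiREV1#2 and TGTCACG for the Scramble siRNA. They were looked for on the sense strand of the longest complete protein-coding transcript of each RASSF gene (GENCODE release 29, GRCh38). CAGGAAT was found in the 3′ UTR of 3 of the 10 genes, RASSF3, RASSF4 and RASSF6, at 5 places in all. Over 17370 genes of the files, 13.9% of the 3′ UTRs hold this word, 1.14% hold GGACGAC and 2.77% hold TGTCACG. A longer 3′ UTR has more places for a word. Those of RASSF3, RASSF4 and RASSF6 are 2655, 2562 and 4685 bases long, where the median over all genes searched is 1110. The share of all genes is thus not one of 3′ UTRs of like length. The windows below are shown because they are the places where the RASSF transcripts carry the word of SiREV1#1 in the 3′ UTR, with the word in capitals and each read 5′ to 3′ along the transcript.
RASSF3, SiREV1#1, plus strand, chr12:64695388-64695417: atcgaaaggcaCAGGAATctaggaactctg
RASSF4, SiREV1#1, plus strand, chr10:44993740-44993769: acgctgccccaCAGGAATgctgctgggaaa
RASSF4, SiREV1#1, plus strand, chr10:44993891-44993920: agaggtgagacCAGGAATaaggccacaagt
RASSF4, SiREV1#1, plus strand, chr10:44994294-44994323: atggagaatttCAGGAATgaatgagaaagc
RASSF6, SiREV1#1, minus strand, chr4:73574506-73574535: acaaggaaaggCAGGAATgagggtttcaga

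The word in RASSF3 starts at base 1324 of the 3492-base transcript, 487 bases after the stop codon, in the last of 5 exons. RASSF4 holds it 422, 573 and 976 bases after the stop codon, all in the last exon, and RASSF6 holds it 1711 bases after the stop codon. Of these 5 words, the middle one in RASSF4 is followed by an A, the base opposite position 1 of the guide, and the other 4 are not. RASSF6 also holds the SiREV1#2 word in its 3′ UTR, the only 3′ UTR among the 10 searched that does, with log2 fold changes after SiREV1#2 given below. RASSF10 carries that word at 2 places in its coding sequence, and RASSF1 carries the Scramble word in its coding sequence. Over the 17370 genes, 9.67% of the coding sequences hold the SiREV1#2 word and 3.76% hold the Scramble word. RASSF2, RASSF5, RASSF7, RASSF8 and RASSF9 hold none of these words in the transcript searched. Beside this, the log2 fold change after SiREV1#1 without a block was -2.37 for RASSF3, -0.28 (standard error 0.44) for RASSF4 and -0.39 (standard error 0.67) for RASSF6. With the block these were -2.36, -0.23 (standard error 0.24) and -0.49 (standard error 0.15). A match of letters is a description and not a binding site, and whether it has any part in the RASSF3 level was not tested.

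**Figure D2:**
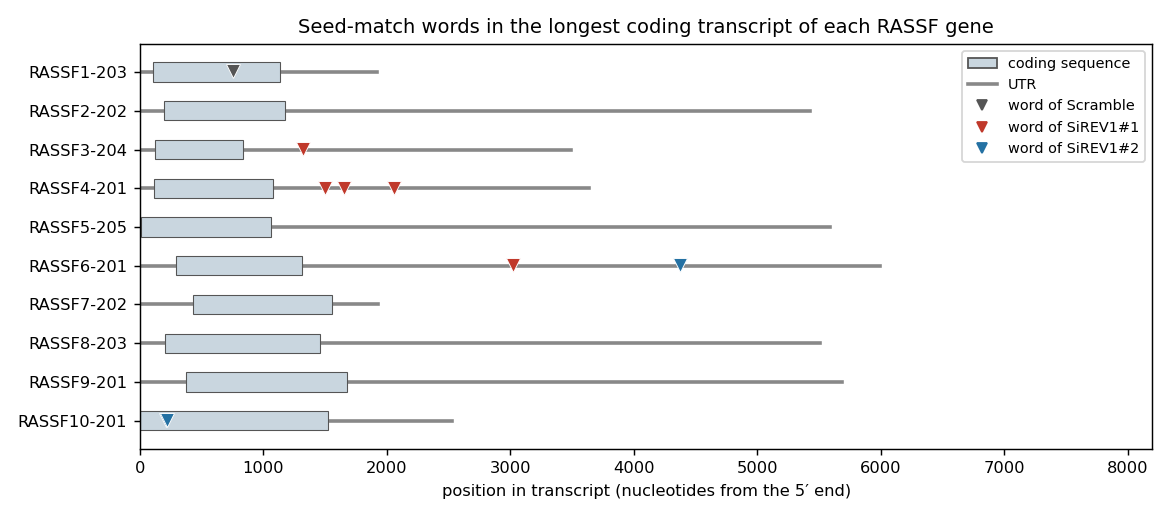
Longest complete protein-coding transcript of each RASSF gene, drawn to scale in nucleotides from the 5′ end; boxes are coding sequence, lines are UTRs and triangles are the 7-base words that pair with the seed of each siRNA. The SiREV1#1 word (red) lies once in RASSF3, at base 1324, 3 times in RASSF4 and once in RASSF6, and the 2 SiREV1#2 words of RASSF10 at bases 210 and 219 overlap at this scale.

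RASSF1 is the member most often found silenced in lung cancer, and its RASSF1A isoform binds STK3 and STK4. Its level was 4.32, 34.32 and 33.30 FPKM in Scramble replicates 1 to 3, 2.01, 30.94 and 29.48 after SiREV1#1 and 3.49, 31.67 and 32.54 after SiREV1#2. The groups overlapped, and the spread between replicate 1 and the others was wider than any difference between groups. Within pairs RASSF1 was at 46.5%, 90.2% and 88.5% of Scramble after SiREV1#1 and at 80.8%, 92.3% and 97.7% after SiREV1#2. The log2 fold change after SiREV1#1 was -0.17 (95% interval -2.84 to 2.49, edgeR adjusted p = 1) and with the block -0.32 (-0.71 to 0.07, edgeR adjusted p = 0.26). For SiREV1#2 the values were -0.43 (-3.44 to 2.59, edgeR adjusted p = 1) and with the block -0.11 (-0.57 to 0.35, edgeR adjusted p = 0.84). A gene-level value does not separate the RASSF1 isoforms, and 17.9% of its exonic bases lie opposite RASSF1-AS1.

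RASSF2, which also pairs with STK3 and STK4, was 9.10, 4.28 and 3.98 FPKM in Scramble replicates 1 to 3. It was 8.52, 7.16 and 7.73 FPKM after SiREV1#1 and 6.63, 4.51 and 4.2 FPKM after SiREV1#2. After SiREV1#1 it was thus higher than Scramble in replicates 2 and 3, at 167% and 194%, and at 93.6% in replicate 1, where Scramble was also high. The log2 fold change was 0.51 (95% interval -0.33 to 1.34, edgeR adjusted p = 0.80), and with the block 0.60 (0.19 to 1.00, unadjusted p = 0.0096, edgeR adjusted p = 0.065). In replicates 2 and 3 only, a fit added after seeing the data with 1 SiREV1#2 library on counts, it was 0.85. The calls of that fit are given below beside the share of all genes. After SiREV1#2 the log2 fold change was -0.02 (-0.96 to 0.91, edgeR adjusted p = 1), and with the block -0.09 (-0.56 to 0.38, edgeR adjusted p = 0.87).

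RASSF6, a pro-apoptotic member that has been described to bind MDM2, was 3.81, 8.39 and 8.96 FPKM in Scramble replicates 1 to 3. It was 1.52, 6.14 and 6.78 FPKM after SiREV1#1 and 2.42, 5.89 and 5.31 FPKM after SiREV1#2. It was below Scramble in all 3 pairs of each siRNA, at 39.9%, 73.2% and 75.7% after SiREV1#1 and at 63.5%, 70.2% and 59.3% after SiREV1#2, while the groups overlapped. The log2 fold change after SiREV1#1 was -0.39 (95% interval -1.97 to 1.18, edgeR adjusted p = 0.98), and with the block -0.49 (-0.84 to -0.13, unadjusted p = 0.014, edgeR adjusted p = 0.08). With SiREV1#2 the change was -0.65 (-2.44 to 1.14, edgeR adjusted p = 1), and with the block -0.35 (-0.77 to 0.07, edgeR adjusted p = 0.36). In replicates 2 and 3 only, a fit added after seeing the data, the change was -0.33 after SiREV1#1 and -0.44 after SiREV1#2. That fit held 1 SiREV1#2 library on counts. The siRNA groups share their Scramble libraries, so the like direction of both is not support from separate controls.

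RASSF5 (NORE1, with the short form RAPL) binds RAS and RAP1 and has a part in leukocyte adhesion. It was 1.03, 0.97 and 0.85 FPKM in Scramble replicates 1 to 3, 0.97, 0.50 and 0.65 after SiREV1#1 and 1.05, 2.49 and 3.04 after SiREV1#2. All 3 SiREV1#2 libraries lay above all 3 Scramble libraries, although replicate 1 at 1.05 lay just above the highest Scramble value of 1.03, and the SiREV1#1 libraries overlapped with Scramble. Within pairs it was at 94.2%, 51.5% and 76.5% of Scramble after SiREV1#1 and at 102%, 257% and 358% after SiREV1#2. The log2 fold change after SiREV1#1 was -0.34 (95% interval -1.32 to 0.64, edgeR adjusted p = 0.95), and with the block -0.36 (-1.27 to 0.55, edgeR adjusted p = 0.60). After SiREV1#2 it was 0.93 (-0.13 to 2.00, edgeR adjusted p = 1), and with the block 0.85 (-0.15 to 1.84, edgeR adjusted p = 0.35). Set directly against each other, SiREV1#1 was below SiREV1#2 by a log2 fold change of -1.27 (-2.34 to -0.20, unadjusted p = 0.026, edgeR adjusted p = 0.30). Without SiREV1#2 replicate 2 the log2 fold change after SiREV1#2 was 0.18 and that between the siRNAs -0.51, with the 1 SiREV1#2 library left assumed to vary like the other groups. In replicates 2 and 3 only, a fit added after seeing the data, the log2 fold changes were -0.64 after SiREV1#1 and 1.46 after SiREV1#2. That fit also held 1 SiREV1#2 library on counts. These values rest on 36 to 184 counts per library.

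RASSF4, which also binds RAS, was near 1 FPKM in all groups. It was 1.51, 0.93 and 0.77 FPKM in Scramble replicates 1 to 3, 0.95, 0.64 and 0.82 after SiREV1#1 and 2.02, 0.90 and 1.31 after SiREV1#2. The groups overlapped, and neither siRNA moved it the same way in all 3 pairs. Its log2 fold change was -0.28 (95% interval -1.31 to 0.75, edgeR adjusted p = 0.97) after SiREV1#1 and 0.38 (-0.75 to 1.51, edgeR adjusted p = 1) after SiREV1#2. With the block these were -0.23 (-0.80 to 0.33, edgeR adjusted p = 0.58) and 0.23 (-0.40 to 0.85, edgeR adjusted p = 0.74). RASSF4 rests on 34 to 95 counts per library, and 8.91% of its exonic bases lie opposite exons of other genes.

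Among the N-terminal members, RASSF7, described in mitotic spindle assembly, was 23.57, 15.66 and 14.64 FPKM in Scramble replicates 1 to 3. It was 15.09, 20.71 and 21.07 FPKM after SiREV1#1 and 24.37, 9.49 and 9.57 FPKM after SiREV1#2. Replicate 1 went against the other replicates for both siRNAs, at 64.0% of Scramble where these were at 132% and 144% after SiREV1#1, and at 103% where these were at 60.6% and 65.4% after SiREV1#2. On counts the log2 fold change was 0.12 (95% interval -0.76 to 0.99, edgeR adjusted p = 1) after SiREV1#1 and -0.01 (-0.98 to 0.97, edgeR adjusted p = 1) after SiREV1#2. The block gave 0.19 (-0.45 to 0.84, edgeR adjusted p = 0.70) and -0.14 (-0.89 to 0.61, edgeR adjusted p = 0.88). In replicates 2 and 3 only, a fit added after seeing the data, it was 0.45 after SiREV1#1 and -0.63 after SiREV1#2. That fit held 1 SiREV1#2 library on counts.

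RASSF9, an endosomal protein that binds the peptide-amidating enzyme PAM, was 7.0, 29.51 and 31.88 FPKM in Scramble replicates 1 to 3. It was 8.82, 24.90 and 27.44 FPKM after SiREV1#1 and 7.37, 47.12 and 44.23 FPKM after SiREV1#2. It was above Scramble in all 3 pairs after SiREV1#2, at 105%, 160% and 139%, while the groups overlapped because replicate 1 was low in each. Its log2 fold change was -0.14 (95% interval -2.10 to 1.82, edgeR adjusted p = 1) after SiREV1#1 and 0.20 (-1.99 to 2.38, edgeR adjusted p = 1) after SiREV1#2, and with the block 0.02 (-0.52 to 0.57, edgeR adjusted p = 0.96) and 0.28 (-0.37 to 0.92, edgeR adjusted p = 0.68). In replicates 2 and 3 only, a fit added after seeing the data, it was -0.23 after SiREV1#1 and 0.56 after SiREV1#2. That fit held 1 SiREV1#2 library on counts.

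RASSF8, which has been linked to cell junctions, lay between 2.20 and 4.08 FPKM, with replicate 1 the lowest of each group. It was 2.79, 3.02 and 3.50 FPKM in Scramble replicates 1 to 3, 2.20, 3.17 and 3.78 after SiREV1#1 and 2.45, 4.08 and 3.99 after SiREV1#2. The groups overlapped, and no siRNA moved it one way in all 3 pairs. Its log2 fold change was 0.00 (95% interval -0.66 to 0.66, edgeR adjusted p = 1) after SiREV1#1 and 0.13 (-0.61 to 0.86, edgeR adjusted p = 1) after SiREV1#2. With the block RASSF8 was at -0.02 (-0.38 to 0.34, edgeR adjusted p = 0.96) and 0.22 (-0.20 to 0.64, edgeR adjusted p = 0.59). In replicates 2 and 3 only, a fit added after seeing the data, its change after SiREV1#2 was 0.37. That fit held 1 SiREV1#2 library on counts. RASSF10, which is often silenced in cancers, was 1.07, 0.22 and 0.20 FPKM in Scramble replicates 1 to 3, 0.91, 0.26 and 0.34 after SiREV1#1 and 0.96, 0.17 and 0.22 after SiREV1#2. Between 9 and 53 counts stood behind these values, and replicate 1 was high in every group. Its log2 fold change was 0.12 (95% interval -2.08 to 2.32) after SiREV1#1 and 0.22 (-2.20 to 2.65) after SiREV1#2 (edgeR adjusted p = 1 for both). With the block the intervals were narrower, with 0.27 (-0.42 to 0.95, edgeR adjusted p = 0.64) and -0.10 (-0.87 to 0.67, edgeR adjusted p = 0.92).

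**Figure D3:**
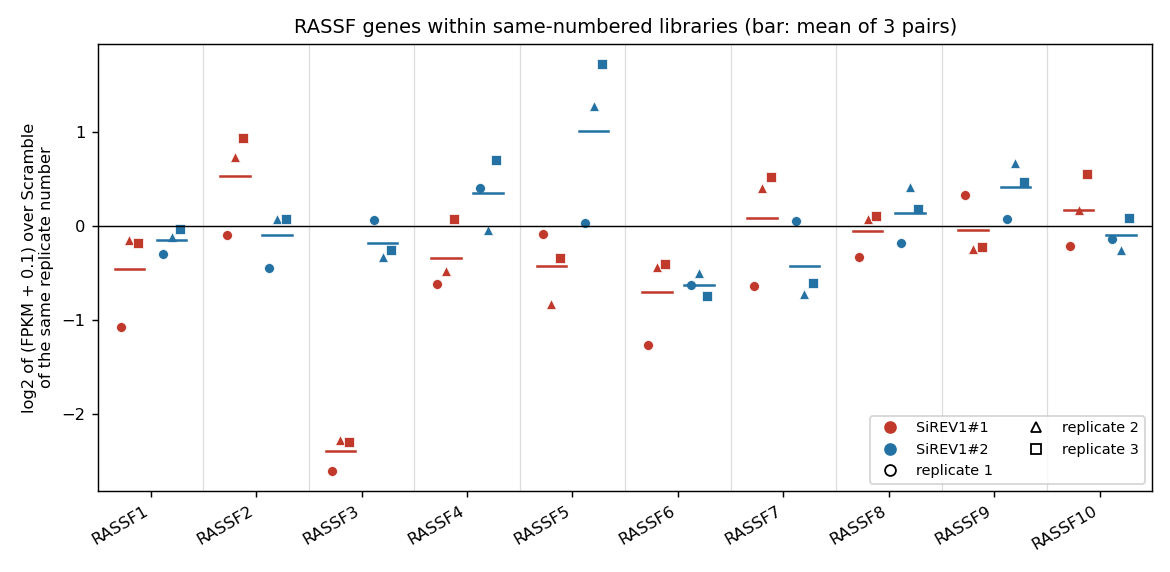
Log2 ratio of FPKM + 0.1 over the Scramble library of the same replicate number, for each RASSF gene and both siRNAs; symbols are the 3 pairs and the bar is their mean. RASSF3 after SiREV1#1 lies between -2.60 and -2.28, and for RASSF2, RASSF7 and RASSF5 replicate 1 (circles) lies apart from replicates 2 and 3.

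Over the family, 4 members were lower than Scramble in all 3 pairs after SiREV1#1 (RASSF1, RASSF3, RASSF5 and RASSF6) and 0 were higher. Of the 11432 genes with a mean FPKM of at least 1, 35.5% were lower and 19.6% were higher in all 3 pairs. After SiREV1#2, 2 members were lower in all 3 pairs (RASSF1 and RASSF6) and 2 were higher (RASSF5 and RASSF9), against 29.7% and 25.9% of genes. RASSF3 after SiREV1#1 and RASSF5 after SiREV1#2 were the members whose groups did not overlap with Scramble, which was so for 20.1% and 16.1% of genes. The comparison with Scramble was used to choose the family, so nothing about the members is read from these shares.

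By edgeR's quasi-likelihood test without a block, 0 of the 9 tested members passed an adjusted p of 0.05 in the comparison of either siRNA with Scramble or of the siRNAs with each other. At an unadjusted p of 0.05, 0, 0 and 1 of them passed, beside 1385, 778 and 1762 of the 14205 genes tested. Over the 14205 genes tested, 0.296%, 0.0% and 0.676% passed the adjusted threshold, and the 0 genes after SiREV1#2 compare with 778 at an unadjusted p of 0.05, 215 by DESeq2 and 56 by limma-trend on log2(FPKM + 1). The median log2 fold change of the 9 members was -0.14 after SiREV1#1 and 0.13 after SiREV1#2, beside 0.00 and 0.02 over all genes tested. With the replicate block, 12.3%, 1.91% and 17.6% of all genes passed, and again 0 of the 9 members. At an unadjusted p of 0.05 the block gave 2, 0 and 2 members, beside 4106, 2571 and 4664 of the 14205 genes tested. DESeq2 and limma-trend without a block also called 0 of the 9 members against Scramble.

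**Figure D4:**
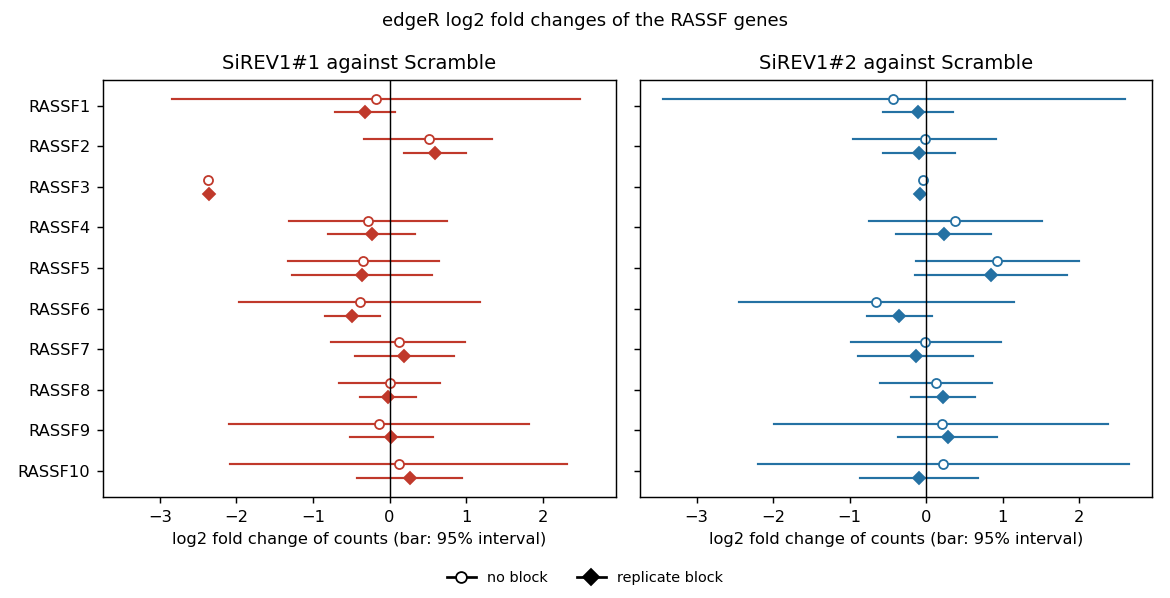
Log2 fold change of counts against Scramble for each RASSF gene (points) with its 95% interval (lines), from edgeR without a block (open circles) and with the replicate number as a block (filled diamonds); SiREV1#1 is on the left and SiREV1#2 on the right. The interval of RASSF1 after SiREV1#1 runs from -2.84 to 2.49 without the block and from -0.71 to 0.07 with it, and RASSF3, a description, is drawn without an interval.

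Alternatives added after seeing the data gave other calls. In replicates 2 and 3 only, edgeR called RASSF2 and RASSF7 higher and RASSF5, RASSF6 and RASSF9 lower after SiREV1#1, so 5 of the 9 members, where 46.5% of all genes passed. After SiREV1#2, with 1 library on counts that is assumed to vary like the other groups, it called RASSF5, RASSF8 and RASSF9 higher and RASSF6 and RASSF7 lower, where 38.4% of all genes passed. Between the siRNAs it called RASSF2 and RASSF7 higher and RASSF5 and RASSF9 lower in SiREV1#1, where 54.4% of all genes passed. In the same replicates limma-trend on log2(FPKM + 1), where 46.7%, 45.4% and 60.7% of genes passed, also called RASSF1 lower after SiREV1#1 (limma adjusted p = 0.028) and RASSF4 lower between the siRNAs, and did not call RASSF8 after SiREV1#2 (limma adjusted p = 0.074). Limma-trend on log2(FPKM + 1) with the block called RASSF6 lower after SiREV1#1 (15.5% of genes), 0 members after SiREV1#2 (8.61% of genes), and RASSF2 higher and RASSF4 and RASSF5 lower between the siRNAs (30.8% of genes). These shares of all genes are high, and a call of a member beside them is no mark of the family.

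The genes whose pattern was most like that of RASSF3 were sought among 11432 genes, by the Pearson correlation of log2(FPKM + 1) after subtracting the mean of same-numbered libraries. The 5 highest over the 9 libraries were MAPKAPK2 (1.00), SAE1 (0.999), APTX (0.998), SLC35B1 (0.998) and ARPC1B (0.997). These points share libraries and depth, and 6 of the 9 are not low in RASSF3, so each coefficient describes mainly the step between SiREV1#1 and the rest. MAPKAPK2 was 31.26 to 37.95 FPKM in Scramble, 4.35 to 6.58 after SiREV1#1 and 27.95 to 31.84 after SiREV1#2. Among the family, RASSF1 had a coefficient of 0.78, RASSF4 of 0.73 and RASSF2 of -0.78 with RASSF3. Without the subtraction these were 0.07, 0.54 and -0.55, and 2 of the 5 genes named above were again among the 5 highest.

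Partners of the RASSF proteins were followed as a list. Without a block 0 genes of any list passed against Scramble, so the calls that follow are those with the replicate block, where 12.3% of all genes passed after SiREV1#1 and 1.91% after SiREV1#2. STK4 was 9.32, 6.96 and 6.92 FPKM in Scramble replicates 1 to 3, 6.59, 5.36 and 5.57 after SiREV1#1 and 8.63, 7.20 and 7.07 after SiREV1#2. It lay below Scramble without overlap after SiREV1#1, with a log2 fold change of -0.31 that did not pass (edgeR adjusted p = 0.12 with the block). STK3 was 8.71, 13.31 and 12.39 FPKM in Scramble, 6.44, 12.86 and 12.77 after SiREV1#1 and 11.56, 17.87 and 18.04 after SiREV1#2. It did not pass against Scramble for either siRNA (edgeR adjusted p = 0.80 and 0.14 with the block). For SiREV1#1 against SiREV1#2 it passed with the block, with a log2 fold change of -0.54 (edgeR adjusted p = 0.04), where 17.6% of all genes passed.

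SAV1, the scaffold with a SARAH domain, was 8.33, 15.77 and 16.86 FPKM in Scramble replicates 1 to 3, 2.97, 8.08 and 8.59 after SiREV1#1 and 8.56, 20.97 and 20.25 after SiREV1#2. It was at 35.7%, 51.2% and 50.9% of Scramble after SiREV1#1 and at 103%, 133% and 120% after SiREV1#2. Its log2 fold change after SiREV1#1 was -1.01 (edgeR adjusted p = 0.58), and with the block -1.05 (standard error 0.13, edgeR adjusted p = 0.0037), and SiREV1#1 was below SiREV1#2 with the block by -1.32 (edgeR adjusted p = 0.0022). MDM2, the partner of RASSF3 and RASSF6, was 15.02, 38.82 and 38.48 FPKM in Scramble, 3.76, 14.13 and 14.52 after SiREV1#1 and 13.44, 26.00 and 24.98 after SiREV1#2. All SiREV1#1 libraries lay below all Scramble libraries, although the highest, at 14.52 FPKM, lay just below Scramble replicate 1 at 15.02. The log2 fold change after SiREV1#1 was -1.47 (edgeR adjusted p = 0.45), and with the block -1.53 (standard error 0.17, edgeR adjusted p = 0.0025). After SiREV1#2 MDM2 was at 89.5%, 67.0% and 64.9% of Scramble and did not pass (log2 fold change -0.29, edgeR adjusted p = 0.50 with the block). MOAP1, which binds RASSF1A at mitochondria, was 5.24, 7.97 and 7.86 FPKM in Scramble and 3.08, 6.58 and 7.02 after SiREV1#1 and did not pass (edgeR adjusted p = 0.23 with the block).

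Of 14 genes of the Hippo core, 4 fell and 1 rose after SiREV1#1 with the block. FRMD6, MOB1B, SAV1 and TAOK3 fell, with log2 fold changes of -0.65, -1.12, -1.05 and -0.54, and the kinase LATS2 rose by 0.74. After SiREV1#2 LATS2 rose by 0.79, the only gene of this list that passed. NF2, the upstream regulator merlin, was at 6.95, 7.84 and 6.65 FPKM in Scramble and 5.13, 4.23 and 4.05 after SiREV1#1 and did not pass (log2 fold change -0.57, edgeR adjusted p = 0.053 with the block). MAP4K4, a kinase that acts beside STK3 and STK4, had log2 fold changes of 0.32 after SiREV1#1 and -0.82 after SiREV1#2 (edgeR adjusted p = 0.18 and 0.053 with the block). For SiREV1#1 against SiREV1#2 it passed with the block, at 1.14 (edgeR adjusted p = 0.0049), where 17.6% of all genes passed. The median log2 fold change of the list was -0.01 and 0.14.

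STRIPAK is the phosphatase complex that acts on STK3 and STK4. Of its 17 tested genes, 4 fell after SiREV1#1 and 0 passed after SiREV1#2. They were the scaffold partner MOB4 (log2 fold change -1.58, standard error 0.13), the kinase STK26 (-1.26, standard error 0.17), FGFR1OP2 (-1.23) and STRIP2 (-0.95). MOB4 was 16.29, 28.12 and 29.72 FPKM in Scramble and 5.44, 8.85 and 9.06 after SiREV1#1, without overlap. STRN4 and SIKE1 had log2 fold changes of -0.79 and 0.48 after SiREV1#2 (edgeR adjusted p = 0.21 and 0.15 with the block). The median of the list was -0.08 and 0.09.

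Of 7 genes around YAP1 and the TEAD factors, TEAD2 (log2 fold change 1.04) and VGLL4 (0.75) rose after SiREV1#1, and VGLL4 fell by 1.07 on the log2 scale after SiREV1#2. VGLL4, which competes with YAP1 for TEAD factors, was 12.48, 10.27 and 11.56 FPKM in Scramble, 16.01, 19.34 and 20.09 after SiREV1#1 and 5.14, 5.39 and 4.86 after SiREV1#2. All 3 groups lay apart. SiREV1#1 stood above SiREV1#2 for VGLL4 by 1.84 without a block (standard error 0.18, edgeR adjusted p = 0.013). Of 23 YAP targets, ANKRD1 (-0.67) and ASAP1 (-1.07) fell and LATS2 (0.74) rose after SiREV1#1, and LATS2 alone passed after SiREV1#2. The medians over the YAP targets were -0.07 and 0.12. AXL, DLC1 and ARHGEF17, also on that list, did not pass against Scramble, with DLC1 and ARHGEF17 at -0.88 and -0.60 after SiREV1#2 (edgeR adjusted p = 0.074 and 0.073 with the block). For SiREV1#1 against SiREV1#2 ARHGEF17 passed with the block, at 0.67 (edgeR adjusted p = 0.017), where 17.6% of all genes passed. AXL and DLC1 did not pass there (edgeR adjusted p = 0.053 and 0.17 with the block).

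Of 14 RAS family GTPases, RRAS2 fell after SiREV1#1 (log2 fold change -0.90), and 0 passed after SiREV1#2. RRAS, MRAS and RAP2B did not pass against Scramble. The list of 22 partners includes MDM2 and MOAP1, given above. In it MDM2 (-1.53), AURKA (-0.90), MAPK8 (-0.70) and STK38 (-0.50) fell and ATP2B4 (0.63) and PPP1R13B (0.66) rose after SiREV1#1. CDC20, the mitotic activator bound by RASSF1A, fell by 1.63 on the log2 scale after SiREV1#2 (edgeR adjusted p = 0.031 with the block), with 65.47, 34.43 and 32.41 FPKM in Scramble and 27.10, 7.49 and 7.69 after that siRNA. The lists name genes that were picked with earlier results of these data known and are no test of the pathway.

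**Figure D5:**
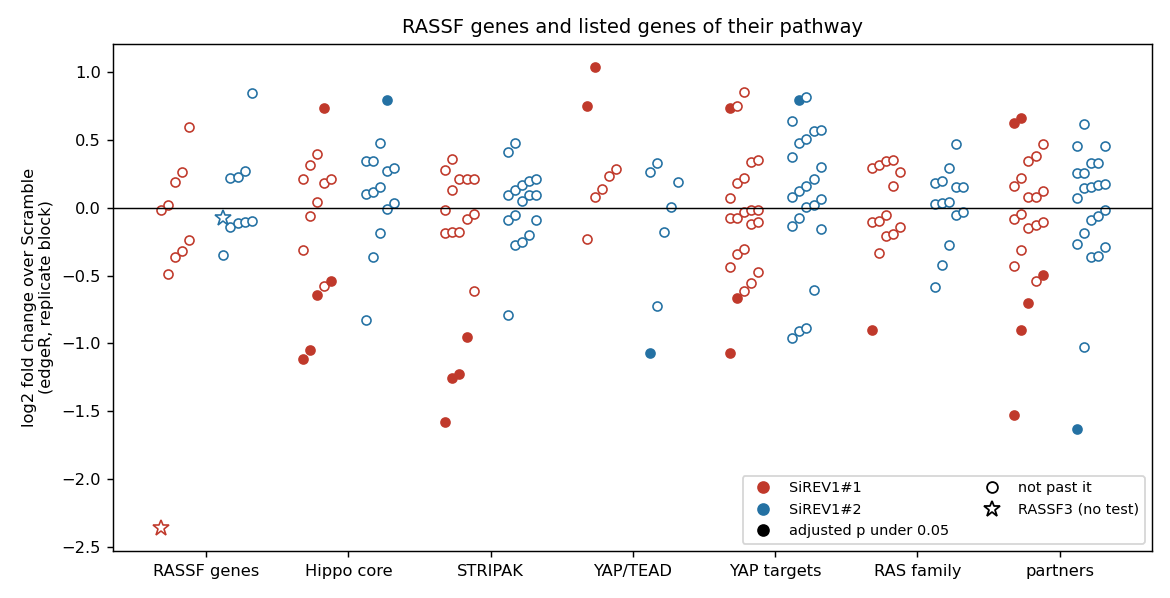
Log2 fold change over Scramble from edgeR with the replicate block for the RASSF genes and 6 lists of pathway genes, SiREV1#1 in red and SiREV1#2 in blue; filled points passed an adjusted p of 0.05 and stars are RASSF3, which has no test. The SiREV1#1 values of RASSF3 (-2.36), MOB4 (-1.58) and MDM2 (-1.53) and the SiREV1#2 value of CDC20 (-1.63) are the lowest of the plot.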

How the data were processed

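Total RNA of A549 cells was sequenced as oligo(dT)-selected mRNA, with 3 libraries for each of 3 groups. For each library the authors deposited FPKM values, scaled by length and library size and rounded, and expected counts (estimated read counts) without normalization, for 18143 genes. The submitters' processing notes name StringTie 1.3.3b and the build hg38. The aligner, the annotation, the strand setting and the test used are not given in the sources used here. Of the counts 42.6% are not whole, and all were rounded. For SiREV1#2, replicates 2 and 3 hold the same counts at 100.0% of genes but the same FPKM at 3.07%, so these counts entered as 1 library.

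Groups and replicate numbers came from the sample titles. Counts were compared in edgeR 4.0.16 (R 4.3.3): filterByExpr (14205 genes kept, all 10 RASSF genes among them), TMM, 1 quasi-likelihood fit of 3 groups over 8 libraries, Benjamini-Hochberg adjustment over all genes. Standard errors are the log2 fold change divided by the root of F, and 95% intervals use the t quantile of that fit. FPKM ratios used a pseudocount of 0.1, and shares of genes those with a mean FPKM of at least 1. The replicate number was added as a block as an alternative: after subtracting group means, libraries with the same number correlated at 0.734 to 0.929 (9 pairs, 11432 genes), so the numbers were taken as pairing. Libraries numbered 2 in one group and 3 in another correlated at 0.751 to 0.914, so this likeness sets replicate 1 apart and does not tell replicate 2 from 3. Other alternatives were DESeq2 1.42.0, upper-quartile scaling, no filter, limma 3.58.1 (limma-trend) on FPKM with a pseudocount of 1 or 0.1 before the log2, and leaving out each library. Added after seeing the data were limma-trend with the block, and replicates 2 and 3 only. The fits were also run on simulated counts, with a spread that was set and not estimated from these libraries. Only the edgeR fit with the block was given a replicate shift there. That run therefore does not show how the fits without a block behave where replicate 1 stands apart. Members and lists were chosen with earlier results of these data known. Named genes were the 10 members, REV1, STK3, STK4, SAV1, MDM2, MOAP1, the 2 genes with the smallest p of each list and comparison in the fit without a block, and the 5 genes most like RASSF3. Other genes of a list are named because they passed, chosen after their values were seen. Transcripts and positions are those of GENCODE release 29 on GRCh38, the same build as hg38. The planned comparison of RASSF proteins was not run. Tables and plots were made in Python 3.11.15 (numpy 2.4.6, pandas 2.3.3, matplotlib 3.10.9). Some listed genes and sequence windows are not reported here.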

Additional observations from a re-analysis of the deposited data

Results flagged for a closer look

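RASSF5 was below Scramble in all 3 pairs after SiREV1#1, with a mean log2 ratio of -0.42 ± 0.38 (SD, n = 3 pairs), and above it in all 3 pairs after SiREV1#2, with a mean of 1.01 ± 0.88 (SD, n = 3 pairs). It drew attention because every pair of one siRNA moved against every pair of the other. The share of all genes that do the same was not worked out, so nothing about RASSF5 is read from this pattern. RASSF3 was left out of this search because the family was chosen by its pattern. Replicate 1 gave log2 ratios of -0.08 and 0.03, so the direction there rests on values close to 0. The difference between the siRNAs was tested directly on counts and did not pass, with a log2 fold change of -1.27 (edgeR adjusted p = 0.30) and with the block -1.21 (edgeR adjusted p = 0.10). Over the alternatives its edgeR, DESeq2 and limma adjusted p ranged from 3.4e-06 to 0.67, the lowest in replicates 2 and 3 only and the highest without SiREV1#2 replicate 2, where the log2 fold change was -0.51. Groups of 3 libraries are too small for a search for single libraries that stand apart.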

How the results depend on the processing

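The number of genes called depended strongly on the fit and on the libraries used. After SiREV1#1, after SiREV1#2 and between the siRNAs, 42, 0 and 96 genes passed without a block. The replicate block gave 1744, 271 and 2503, DESeq2 582, 215 and 887, limma-trend with a pseudocount of 1 gave 117, 56 and 590, with one of 0.1 it gave 120, 52 and 593. Limma-trend with the block gave 2201, 1223 and 4373, replicates 2 and 3 only 6597, 5450 and 7712 with edgeR and 6638, 6456 and 8621 with limma-trend. Leaving out 1 library gave 0 to 35, 0 to 0 and 0 to 93 genes, with 0 after SiREV1#1 without replicate 2 or 3 of Scramble or SiREV1#1, 14 without Scramble replicate 1 and 25 without SiREV1#2 replicate 2. Between the siRNAs there were 0 without replicate 2 of any group or SiREV1#1 replicate 3, 14 without Scramble replicate 3, 60 without Scramble replicate 1 and 44 without SiREV1#2 replicate 1. The biological coefficient of variation was 0.412 without the block and 0.161 with it. In edgeR the block changed no call of the 9 tested RASSF genes. In limma-trend it changed that of RASSF6 after SiREV1#1 (limma adjusted p = 0.84 without it, 0.046 with it) and that of RASSF5 between the siRNAs (0.093 and 0.025). With the block limma-trend also called RASSF2 and RASSF4 between the siRNAs, and their values there without it are not given here. The cause of these differences was not tested.

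The RASSF3 log2 fold change after SiREV1#1 was -2.37, and -2.09, -2.09 and -2.01 by limma-trend on log2(FPKM + 1) without the block, with it and in replicates 2 and 3 only, where the pseudocount pulls low values together. Against SiREV1#2 it was -2.32, and -1.92, -1.92 and -1.73 by the same fits. After SiREV1#2 it was -0.04, and -0.27 by edgeR and -0.28 by limma-trend in replicates 2 and 3 only. Leaving out 1 library gave -2.41 to -2.33, -2.53 to -2.09 and -0.29 to 0.16 in the same order. In pairs 2 and 3 only, 3 members were higher after SiREV1#1 in place of 0, and after SiREV1#2 4 were lower in place of 2 and 4 higher in place of 2. Such counts can only stay or rise when a pair is left out. The share of all genes in these pairs was not worked out, so nothing about the members is read from them.

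Of the log2 fold changes of the 9 other members, all not called, 29 of 152 values changed sign on leaving out 1 library and 17 of 171 under other alternatives, while 24 of these 171 passed the threshold, in replicates 2 and 3 only or by limma-trend with the block. After SiREV1#1 the sign changed for RASSF8 (0.00), to -0.02 with the replicate block, -0.0 with no filter, -0.03 and -0.05 by limma-trend with pseudocounts of 1 and 0.1 and -0.03 with the block, and for RASSF9 to 0.02 with the replicate block. After SiREV1#2 it changed for RASSF2 to 0.11 and 0.06 by edgeR and limma-trend in replicates 2 and 3 only, for RASSF4 to -0.07 in these replicates, and for RASSF7 to 0.01 by DESeq2 and 0.03 by upper-quartile scaling. RASSF10 went to -0.1 with the replicate block, -0.04 and -0.1 by limma-trend, -0.04 with the block, and -0.35 and -0.02 in replicates 2 and 3 only.

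Leaving out 1 library, the log2 fold change after SiREV1#1 ranged from -0.67 to 0.35 for RASSF1, -0.46 to 0.06 for RASSF4, -0.75 to 0.02 for RASSF6, -0.01 to 0.38 for RASSF7, -0.16 to 0.16 for RASSF8, -0.58 to 0.2 for RASSF9 and -0.7 to 1.32 for RASSF10. After SiREV1#2 it ranged from -2.67 to 0.41 for RASSF1, -0.36 to 0.46 for RASSF2, -0.4 to 0.89 for RASSF4, -0.88 to 0.53 for RASSF7, -0.31 to 0.46 for RASSF8, -1.84 to 1.01 for RASSF9 and -1.55 to 1.43 for RASSF10. RASSF5 kept its sign, at 0.18 to 1.43 after SiREV1#2 and -1.77 to -0.51 between the siRNAs, the values nearest 0 without SiREV1#2 replicate 2. Where 1 SiREV1#2 library was left on counts, it was assumed to vary like the other groups.

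Limits were the counts of RASSF4, RASSF5 and RASSF10, at most 95, 184 and 53 in a library, the 2 libraries of SiREV1#2 on counts, and 1 value per gene for all isoforms.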
